A study of Bos taurus with 6 samples.

Results

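Chromosome 25 is the shortest bovine autosome in these peak lists, and it carried H3K4me3 peaks at more than double the density of a typical autosome. Its peaks were chosen by the chromosome column of 3 deposited peak lists, and all of them are described: 773 peaks of the 22404 listed for replicate 1, 668 of the 19076 for replicate 2, and 765 of the 22060 for replicate 3. The chromosome itself was selected on its crowding of peaks in these lists, so its density, its windows and its spacing are given as descriptions without a test. The study profiled trimethylation of lysine 4 on histone H3 (H3K4me3) by chromatin immunoprecipitation and sequencing in bovine blastocysts produced in vitro, the stage at which an embryo has formed an inner cell mass and a trophectoderm. Each of the 3 replicates was a pool of about 11 unsexed embryos collected at 192 h, on day 8, after culture under 5% oxygen, and the pools mixed early, expanded, hatching and hatched blastocysts. Each immunoprecipitate used 3 µg of antibody and was compared by the authors with its own input chromatin. The embryos came from 2 fertilisation procedures, and the sources used here do not say which replicate came from which, so replicate and procedure cannot be told apart. There was 1 condition, with no treated group, and the signal is a mean over both cell lineages and over all stages in the pool.

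H3K4me3 is a histone mark deposited by SET1 and MLL methyltransferase complexes. It is found at the promoters of active and poised genes, above all where the promoter lies in a CpG island, and its peaks usually sit over the start of transcription. In early embryos, broad domains of the mark inherited from the oocyte are remodelled into promoter peaks once the embryo starts its own transcription. Chromosomes that are short and rich in genes carry many promoters per unit of length.

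A list of 14 well-known genes was made on the condition that they lie on chromosome 25, so their place there is not a result. The later RefSeq annotation (ARS-UCD2.0) was used for gene names and chromosome only. The list holds the alpha-globin family (HBZ, HBM, HBA, HBA1 and HBQ1), which encodes subunits of haemoglobin, and AXIN1, which encodes a scaffold of the Wnt pathway's destruction complex. It also holds TSC2, a restraint on mTOR signalling, PKD1, which encodes polycystin, and CREBBP, which encodes a histone acetyltransferase. The others are the kinase gene MAPK3, the glycolytic gene ALDOA, the lysosomal glucuronidase gene GUSB, the elastin gene ELN and the cytoplasmic actin gene ACTB. The peaks were called on an older assembly, UMD 3.1.1, and no gene was assigned to any peak. All coordinates below are 1-based positions on that assembly.

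A peak has a start, an end and a score given by the peak caller. Scores started at 50 in each list, reached 3233, and were tied at exactly 3100 for 3795, 1132 and 3233 peaks, so a score is used only through its rank. The score percentile of a peak is its rank in its own replicate's list as a percentage of that list, with tied peaks sharing their mean rank. No read depth is held in the lists, and the depth behind single peaks is unknown. The length of a chromosome was taken as the end of its last peak in any replicate, 42.8 Mb for chromosome 25, with its first peak starting at position 111095 and its last ending at 42785468.

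Chromosome 25 held 18.1, 15.6 and 17.9 peaks per Mb in replicates 1 to 3, or 17.2 ± 1.37 (SD, n = 3). The median of the other 28 autosomes was 8.26, 6.92 and 8.15 peaks per Mb in the same lists. The ratio was 2.21 ± 0.0382 (SD, n = 3), so the lower density of replicate 2, whose list was the shortest, was matched by a lower median on the other autosomes. The chromosome ranked 3 of 29 in each replicate, behind chromosomes 18 and 19 (19.9 and 19.7 peaks per Mb in replicate 1) and ahead of chromosome 23 (14.4). By number of peaks it ranked only 11 of 29, while its length was the shortest of the 29. Peaks covered 4.54%, 3.45% and 3.82% of the chromosome, again rank 3 in each replicate, against medians of 1.99%, 1.51% and 1.65% on the other autosomes.

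The peaks were unevenly spread along the chromosome, as they were along other autosomes. Chromosome 25 was divided into 43 windows of 1 Mb, the last of them 0.785 Mb long, and each peak was counted in the window of its midpoint. The SD of its window counts divided by their mean was 1.04, 1.04 and 1.08 in replicates 1 to 3. The medians of this value on the other autosomes were 0.959, 0.954 and 0.968, and chromosome 25 ranked 10 of 29 in each replicate. A window was called dense when it held at least as many peaks as the 90th percentile of the windows of the other autosomes, which was 20, 16 and 19 peaks in replicates 1 to 3. In each replicate 15 of 43 windows were dense (34.9%), whereas 10.3%, 11.2% and 11% of the 2456 windows on the other autosomes met the same threshold in replicates 1, 2 and 3. The same 14 windows were dense in all 3 lists. The window at 35 to 36 Mb was dense in replicates 1 and 3 only, with 23, 14 and 20 peaks, and the window at 28 to 29 Mb in replicate 2 only, with 17, 17 and 16 peaks. Dense windows held 78.1%, 77.2% and 79.1% of the chromosome's peaks. On the other autosomes, pooled, windows meeting the same thresholds contained 7985, 7104 and 8265 peaks, from totals of 20837, 17666 and 20525. Such shares also reflect how many windows were dense, and chromosome 25 was selected for its density.

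**Figure D1:**
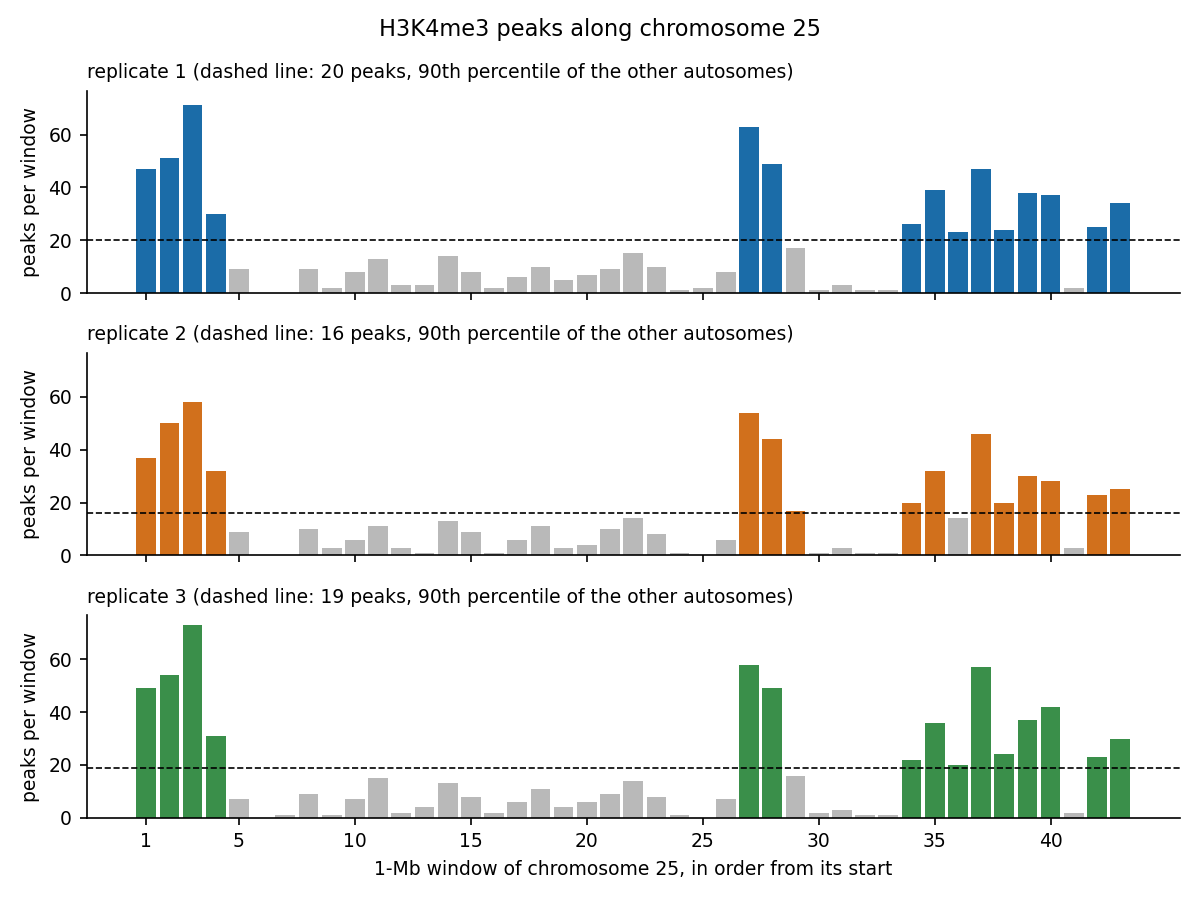
Number of H3K4me3 peaks (vertical axis) in each of the 43 windows of 1 Mb of chromosome 25, in order from its start, in 3 replicates. Coloured bars are windows at or above the 90th percentile of the other autosomes (dashed line), grey bars are below it; the dense windows form groups at the start, at windows 27 and 28, and from window 34 to the end.

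The fullest window, from 2 to 3 Mb, held 71, 58 and 73 peaks. Only 1, 5 and 4 of the 2456 windows on other autosomes held as many. The window from 26 to 27 Mb followed with 63, 54 and 58 peaks, and the one from 1 to 2 Mb held 51, 50 and 54. The window from 36 to 37 Mb held 47, 46 and 57 peaks, and that from 27 to 28 Mb held 49, 44 and 49. The fullest window was the same in each replicate, and the order of the next 4 differed, since replicate 3 held more peaks at 36 to 37 Mb than at 1 to 2 Mb and the other lists did not. At the other extreme, the window from 5 to 6 Mb held no peak in any list, that from 6 to 7 Mb held 0, 0 and 1, and that from 24 to 25 Mb held 2, 0 and 0. Window counts rose and fell together between lists, with Pearson correlations of 0.988, 0.992 and 0.988 for replicates 1 and 2, 1 and 3, and 2 and 3 over the 43 windows. The counts themselves were equal in only 11, 13 and 12 of the 43 windows for these pairs, and replicate 1 was above replicate 2 in 25 windows and below it in 7. These correlations describe windows that share their gene content and mappability in every list.

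Read along the chromosome, the windows fell into alternating blocks. The first 4 Mb held 199, 177 and 207 peaks, or 25.7%, 26.5% and 27.1% of the chromosome's total. From 4 to 26 Mb, over 22 windows, there were 144, 129 and 135 peaks, or 6.55, 5.86 and 6.14 per Mb. This middle stretch spans more than 20 Mb with a density below the median of other autosomes in every replicate. The comparison is unlike, because the stretch was marked out by its lack of dense windows and whole autosomes include them. The median 1-Mb window of the other autosomes held 5 peaks in each replicate, so the stretch is not shown to be poor in peaks beside a typical window.

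The block from 26 to 28 Mb was the most crowded, with 112, 98 and 107 peaks, or 56, 49 and 53.5 per Mb. The next 5 windows together held only 23 peaks in each replicate. From 33 to 35 Mb there were 65, 52 and 58 peaks, and from 36 to 40 Mb 146, 124 and 160. The window from 40 to 41 Mb dropped to 2, 3 and 2 peaks, before a last dense block of 59, 48 and 53 from 41 Mb to the end.

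The blocks also differed in the rank of their peaks. The median score percentile of the block from 26 to 28 Mb was 59.3, 57.8 and 60.4. The sparse block from 28 to 33 Mb, with its 23 peaks, had medians of 64.3, 65.4 and 63.8, the highest of the 9 blocks in every replicate. Of these peaks, 17, 17 and 16 lay in the window from 28 to 29 Mb, which was itself dense in replicate 2. That window had medians of 65.3, 66.1 and 70.1. The window from 35 to 36 Mb had medians of 33.0, 35.4 and 33.2, and the final block 41.9, 39.6 and 43.9. The lowest medians were those of the few peaks from 40 to 41 Mb, at 15.0, 6.83 and 6.92. The sparse blocks thus held both the highest and the lowest medians.

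Neighbouring peaks on chromosome 25 lay a median of 14.3, 17.5 and 13.9 kb apart, measured from the end of a peak to the start of the next. On the other autosomes, pooled, the medians were 32.1, 40.3 and 31.5 kb. Gaps over 100 kb made up 9.46%, 11.2% and 9.82% of gaps on chromosome 25, compared with 25.1%, 29.1% and 25.2% elsewhere. The tightest neighbours, less than 3 kb apart, numbered 156 of 772 pairs in replicate 1 (20.2%, against 14.2% on the other autosomes), 107 of 667 in replicate 2 (16.0%, against 12.2%) and 151 of 764 in replicate 3 (19.8%, against 16.1%). By this share chromosome 25 ranked 2, 2 and 5 of 29, below chromosome 23 in every list (22.0%, 22.1% and 22.2%). A gap under 3 kb can separate parts of 1 enriched domain that the caller split, and the shortest gaps were 3, 11 and 11 bp.

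**Figure D2:**
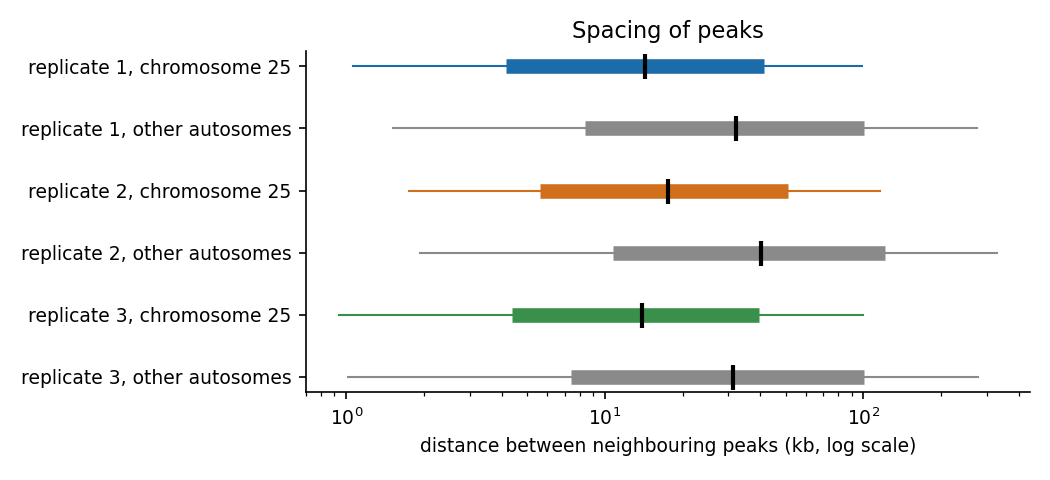
Distance between neighbouring peaks in kb on a log scale for chromosome 25 (coloured) and the other autosomes pooled (grey) in 3 replicates. Ticks mark medians, thick bars run from the 25th to the 75th percentile and thin lines from the 10th to the 90th; the medians of chromosome 25 (14.3, 17.5 and 13.9 kb) lie left of those of the other autosomes (32.1, 40.3 and 31.5 kb).

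Clusters were runs of at least 5 peaks with gaps of at most 10 kb. Replicate 1 had 20 clusters holding 127 peaks, 16.4% of its chromosome 25 peaks, where 7.05% of peaks on the other autosomes were in clusters. Replicate 2 had 13 clusters with 90 peaks (13.5%, against 4.86%), and replicate 3 had 21 with 142 peaks (18.6%, against 7.35%). The chromosome ranked 3, 2 and 2 of 29 by this share. Every cluster lay in a window that was dense in all 3 lists: 9, 7 and 9 clusters in the first 4 Mb, 4, 3 and 4 between 26 and 28 Mb, and 7, 3 and 8 from 33 Mb onwards. With gaps of at most 5 kb the mean share over replicates fell from 16.2% to 4.39%, and with 20 kb it was 38.6%, so the share is tied to the definition.

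The largest cluster lay at chr25:2583755-2664596, a span of 80.8 kb inside the fullest window. It held 16, 15 and 17 peaks in replicates 1 to 3, which covered 40.3, 33.4 and 31.6 kb. Its members were mostly of middling or low rank, with median score percentiles of 45.5, 32.8 and 40.6. Its strongest peak in replicate 1 was at chr25:2592286-2595305, 3020 bp wide with a score of 3209 (percentile 99.8), and the overlapping peaks in replicates 2 and 3 scored 1596 and 2484 (percentiles 76.0 and 78.0). Its widest member in replicate 1 spanned 7571 bp, and in replicate 3 the same ground was divided into peaks of 2294 and 5104 bp. The widest gap, of 9049, 9064 and 9531 bp, set the last 3 peaks apart from the crowded left portion in every list.

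**Figure D3:**
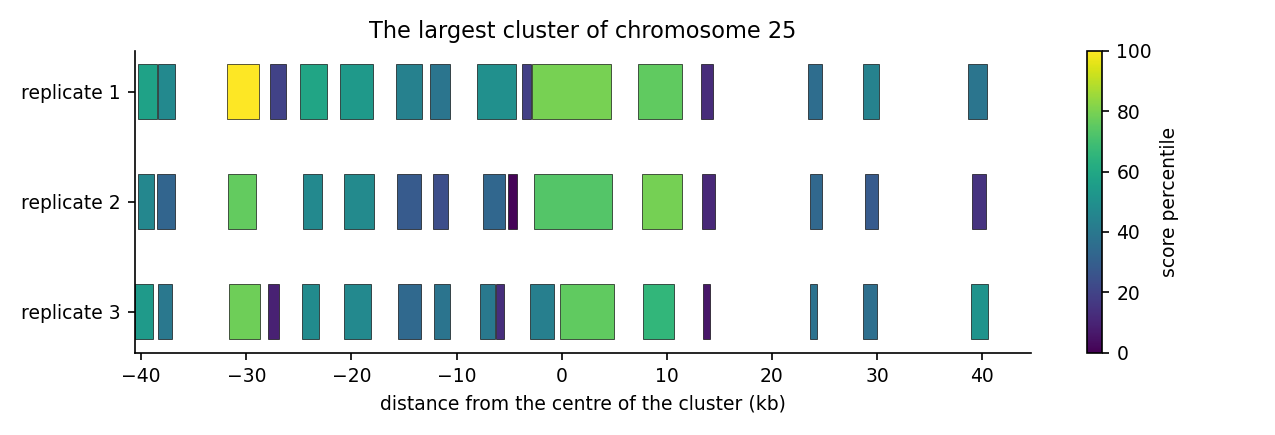
Peaks of the largest cluster of chromosome 25 in each replicate, drawn to scale by distance from the centre of the cluster in kb and coloured by score percentile in the replicate's own list. The 16, 15 and 17 peaks fall at nearly the same places in the 3 rows, and their percentiles run from 1.08 to 99.8.

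The cluster at chr25:544093-585825 held 8 peaks in each of the 3 lists, and these were strong, with median percentiles of 68.5, 61.7 and 62.5. The cluster at chr25:1505829-1563529 was a cluster of 8 peaks by the 10-kb rule in replicate 1 only, with a median percentile of 72.3. The same span held 8 and 7 peaks in replicates 2 and 3, but with gaps of up to 12058 and 11148 bp. In those lists the rule instead joined 9 peaks at chr25:1492135-1548699 and chr25:1491639-1548964, with median percentiles of 63.4 and 44.2. That at chr25:39319024-39359342 held 7, 7 and 6 peaks, including a peak over 9 kb wide that was tied at the score of 3100 in every list. That at chr25:34836068-34877283 was also a cluster in replicate 1 only, with 7 peaks there and 4 in each of the others. In replicate 1 it held 3 peaks with scores under 100, and in the other lists none. The clusters named here were the 5 with the most peaks in replicate 1. In replicates 2 and 3, clusters of 9 peaks lay at chr25:26830257-26881303 and chr25:26829806-26886411. The replicate 1 cluster there, chr25:26829868-26856594, held 5. Replicate 3 had another cluster of 9 peaks at chr25:38797456-38831909, where those of replicates 1 and 2 held 6.

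Stretches of at least 500 kb without a peak numbered 15, 16 and 16 in replicates 1 to 3 and took up 35.3%, 36.9% and 36.8% of chromosome 25. The median share on the other autosomes was 45.1%, 48.8% and 46.1%. Each list had 6 stretches over 1 Mb. There were 15 stretches of at least 500 kb free of peaks in all 3 lists together, and these summed to 13.5 Mb or 31.6% of the chromosome. Shares of the same kind on the other autosomes ran from 16.4% to 54.8%, and chromosome 25 was the fifth lowest of the 29.

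The longest stretch common to all replicates was chr25:4964358-6590551, 1.63 Mb long. In replicates 1 and 2 it continued to 2.60 Mb. In replicate 3 it was broken by a single 646-bp peak at chr25:6590552-6591197 with a score of 50.4, at percentile 0.349 of that list. The next longest was chr25:23105849-24468765 (1.36 Mb), which ran to 1.94 Mb in replicates 2 and 3. In replicate 1 it ended at a 981-bp peak with a score of 65.1. The far limits of both stretches thus rested on calls with low scores, each made in 1 list. The regions at their near limits were called in all 3 lists. The near limit of the longest stretch was also weak, with scores of 127, 79.05 and 144 in replicates 1 to 3. That of the next longest scored 760, 453 and 753.

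The stretches chr25:30251072-31379842 (1.13 Mb) and chr25:31383374-32457677 (1.07 Mb) were the same in all 3 lists to within 1 kb. They were separated by a single region, chr25:31379843-31383373, whose nearest neighbour was 1074 kb away. This isolated region was called in every replicate over 3443, 3294 and 3083 bp, at percentiles 68.1, 67.1 and 75.8. A stretch of 1.07 Mb at chr25:11705645-12777502 completed the 5 that exceeded 1 Mb in common. A stretch without a peak can hold unmappable sequence or assembly gaps as well as chromatin without the mark, and the lists do not tell these apart.

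Peaks on chromosome 25 were a little wider at their median, and narrower at their 90th percentile, than those of the other autosomes. Median width was 2238, 1998 and 1914 bp in replicates 1 to 3, against medians of 2060, 1934 and 1763 bp over the other autosomes. The difference was 131 ± 59.9 bp (SD, n = 3) and was positive in 3 of 3 replicates. An exact two-sided sign-flip permutation test gave p = 0.25, the smallest value that 3 replicates allow, and the adjusted p over 3 such tests was also 0.25. The design cannot reach a threshold of 0.05. Among peaks with a score of at least 100 the mean difference was 57.5 bp, and it was positive in 2 of 3 replicates.

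The lower quartile of width was 1458, 1389 and 1227 bp, ranks 3, 2 and 1 among the 29 autosomes. The 90th percentile was 4134, 3528 and 3688 bp, ranks 27, 28 and 24. The widest chromosome 25 peak of each list, at 14988, 11976 and 10331 bp, was nevertheless above the median of the widest peaks of the other autosomes, at ranks 5, 4 and 14. In replicates 1 and 2 it lay in the region chr25:39422378-39437464. Replicate 3 held 2 peaks in that region, and its widest peak was in chr25:2434295-2444643. Peaks under 1 kb made up a smaller share than elsewhere: 62 in replicate 1 (8.02%, against 11.2% on the other autosomes), 74 in replicate 2 (11.1%, against 15.1%) and 135 in replicate 3 (17.6%, against 21.5%). In replicates 2 and 3 this share was the lowest of the 29 autosomes, and in replicate 1 the third lowest. Broad peaks of at least 5 kb numbered 42 (5.43%, against 6.24%), 19 (2.84%, against 3.45%) and 22 (2.88%, against 3.55%).

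**Figure D4:**
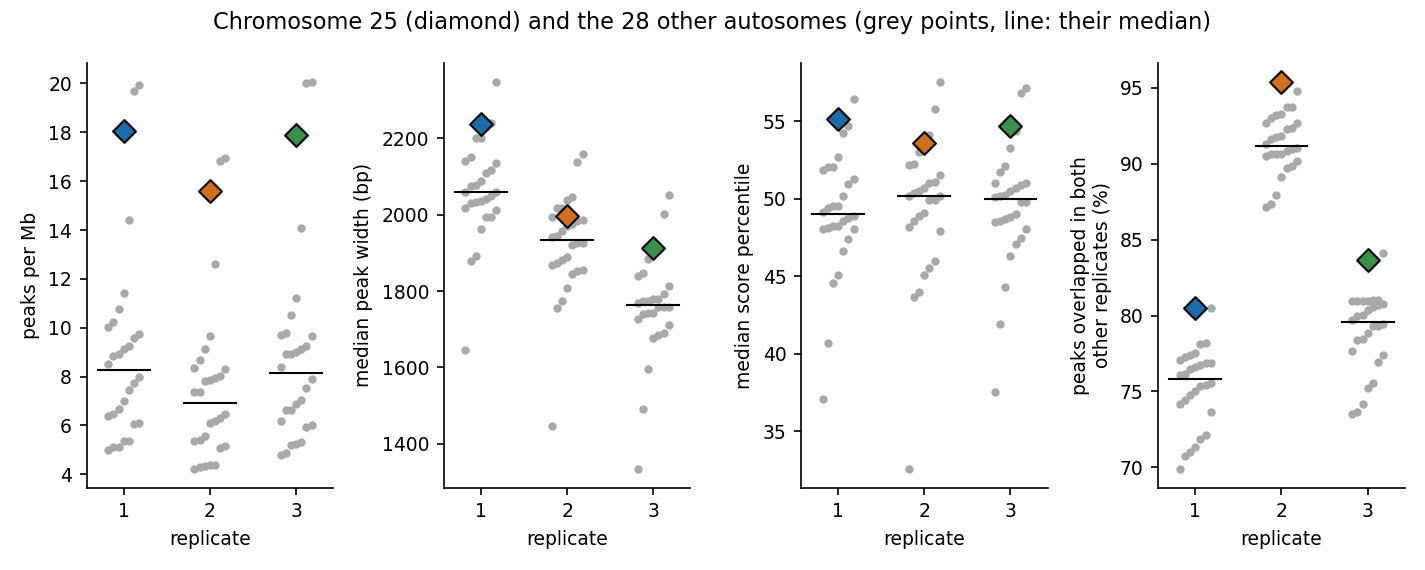
Peak density in peaks per Mb, median peak width in bp, median score percentile and the percentage of peaks overlapped in both other replicates, for chromosome 25 (diamond) and the other 28 autosomes (grey points, line at their median) in each replicate. Chromosome 25 lies above the line in every panel and replicate, at rank 3 for density and at ranks 2, 1 and 2 for overlap; vertical axes do not start at 0.

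The peaks also ranked somewhat higher by score. Their median percentile was 55.2, 53.6 and 54.7, against medians over the other autosomes of 49.0, 50.2 and 50.0, ranks 2, 5 and 3 of 29. The difference was 4.77 ± 1.37 percentile points (SD, n = 3), positive in 3 of 3 replicates, with an exact two-sided sign-flip permutation p of 0.25 and an adjusted p of 0.25. With ranks taken among peaks scoring at least 100 the mean difference was 2.53 points. Within dense windows alone, chromosome 25 had medians of 55.0, 54.5 and 54.0 and the other autosomes 51.2, 51.5 and 50.7. In the remaining windows the values were 56.0, 48.8 and 58.6 against 49.2, 49.3 and 49.6, with replicate 2 below the others.

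The excess of chromosome 25 lay mainly above the middle of the score range. Percentiles 50 to 75 of the lists held 29.0%, 28.3% and 28.9% of chromosome 25 peaks, compared with 24.6%, 24.8% and 24.6% of the peaks on other autosomes. Percentiles above 75 held 27.7%, 25.3% and 26.01%, compared with 25.3%, 25.4% and 25.5%, so they were above the others in replicates 1 and 3 and level in replicate 2. Percentiles up to 25 held 21.0%, 21.0% and 21.7%, compared with 25.2%, 25.1% and 25.1%. The strongest class was slightly thinner: scores of at least 3100 were held by 136 peaks in replicate 1 (17.6%, against 18.5%), 35 in replicate 2 (5.24%, against 6.89%) and 110 in replicate 3 (14.4%, against 16.2%). Scores under 100 were held by 119 (15.4%, against 18.4%), 110 (16.5%, against 19%) and 128 peaks (16.7%, against 19.1%). Scores under 100 and scores of at least 3100 were therefore below the background share in each list.

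**Figure D5:**
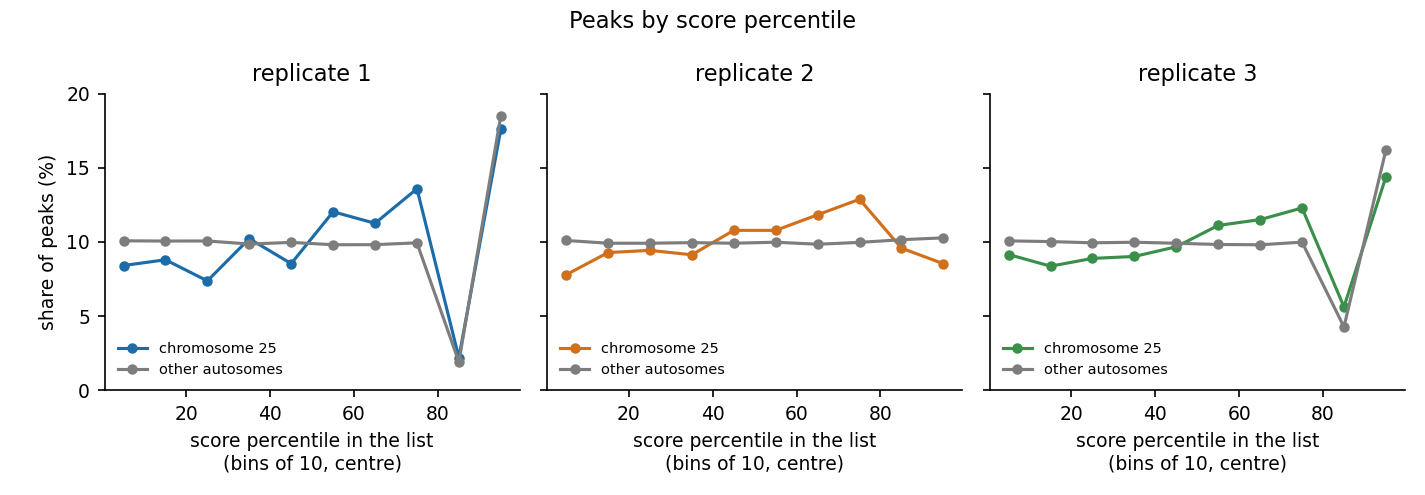
Percentage of peaks (vertical axis) in bins of 10 percentiles of the score ranking of their own list, for chromosome 25 (coloured) and the other autosomes (grey), in 3 replicates. Chromosome 25 lies above the grey line in the 3 bins from percentile 50 to 80 in every replicate, and the dip at 80 to 90 with the rise above 90 in replicates 1 and 3 comes from peaks tied at a score of 3100, which share 1 rank.

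More of the chromosome's peaks recurred between replicates. Peaks overlapped by at least 1 bp in both other lists numbered 622 in replicate 1 (80.5%, against 76% on the other autosomes), 637 in replicate 2 (95.4%, against 91.7%) and 640 in replicate 3 (83.7%, against 79.6%). Against the median of the other autosomes the difference was 4.30 ± 0.294 percentage points (SD, n = 3). It was positive in 3 of 3 replicates, with an exact two-sided sign-flip permutation p of 0.25 and an adjusted p of 0.25. The share of each list is computed from all 3 lists, so these 3 values are not independent. Their SD and the test therefore do not measure the spread between replicates. The chromosome ranked 2, 1 and 2 of 29. The mean difference was 2.12 points when the overlap had to cover 50% of both peaks, and 2.47 points among peaks scoring at least 100.

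The share of recurrent peaks followed score on chromosome 25 as elsewhere. All chromosome 25 peaks above percentile 50 of their list were overlapped in both other replicates. Up to percentile 25 of each list the share was 20.4%, 79.3% and 33.7% on chromosome 25 and 21.1%, 69.0% and 29.7% on the other autosomes, so replicate 1 was slightly below them there and replicates 2 and 3 above. From percentile 25 to 50 it was 87.3%, 98.8% and 91.6% on chromosome 25, above the 83.4%, 98.0% and 88.7% of the others. Peaks overlapped in neither other list numbered 68, 14 and 39 (8.80%, 2.10% and 5.10% of chromosome 25 peaks). Regions called in that list only numbered the same on chromosome 25, against medians of 87.5, 23 and 56.5 on the other autosomes. The peaks overlapped in neither other list were weak, with median scores of 66.7, 72.3 and 64.7 and median widths of 1063, 860 and 721 bp. The share in both others was highest for replicate 2, whose list was the shortest.

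Merging overlapping peaks of the 3 lists gave 810 regions on chromosome 25. Of these, 605 (74.7%) were called in all replicates, 84 in a pair of them and 121 (14.9%) in 1 replicate. The share called in all was the highest of the 29 autosomes, the others running from 60.6% to 72.3%, and the share called in 1 was the lowest, the others running from 17.9% to 25.2%. Of the 84 regions called in a pair of replicates, 69 were missing in replicate 2, 8 in replicate 3 and 7 in replicate 1. The medians of the other autosomes were 92 such regions, with 64, 17 and 9 missing in replicates 2, 3 and 1. Of the regions called in all, 546 (90.2%, against a median of 91.25% on the other autosomes) were covered by a single peak in each list.

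The widest regions called in all 3 lists show the strong end of the chromosome. The region chr25:39422378-39437464 was covered over 14988, 11976 and 12666 bp. The region chr25:2434295-2444643 was covered over 10166, 9454 and 10331 bp, and chr25:39339209-39349133 over 9682, 9859 and 9036 bp. The region chr25:38821749-38833559 was covered over 11811, 8199 and 9283 bp. All 4 of these had the tied score of 3100 in every list. The fifth, chr25:2620272-2629040 in the largest cluster, was covered over 8478, 7424 and 7398 bp with scores of 2855, 1467 and 2291.

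At the weak end, 3 regions called in every list had the lowest mean percentiles. The region chr25:42422144-42423144 scored 54.5, 63.2 and 60.9. The region chr25:22944522-22945640 scored 71.1, 61.4 and 54.6, and chr25:4223828-4225005 scored 103.9, 62.3 and 50.4. The strongest regions called in 1 replicate only were chr25:27375385-27376625 in replicate 1 with a score of 288, chr25:2543707-2544762 in replicate 3 with 226 and chr25:13256429-13256716 in replicate 2 with 202. No region called in a single replicate thus exceeded a score of 288, far below the chromosome's median scores of 942, 649 and 848.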

How the data were processed

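The labels describe 3 H3K4me3 libraries with peak lists and 3 matching inputs without lists. The authors aligned single-end 51-base reads to UMD 3.1.1 without scaffolds with Bowtie (1.2.3 in the submitters' processing notes), discarded duplicate reads (Picard), and ran MACS on every library against its own input, without pooling; the MACS version and threshold are not given in the sources used here. The deposited files hold peak positions and the caller's score, and hold no read counts. List lengths differed, so chromosome 25 was compared with the other autosomes only within a list.

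Positions were converted from 0-based starts to 1-based. Peaks of chromosome 25 and of the other 28 autosomes were summarised per list (Python 3.11.15, pandas 2.3.3, NumPy 2.4.6), and overlap was checked with bedtools 2.31.1. The cluster, peak-free stretch, window and overlap steps were also checked on simulated peaks, and the sign-flip test on set values. The other steps were not checked in this way. Chromosome 25 was compared with the median of the other autosomes in each replicate, and 3 differences were tested by exact sign-flip permutation over 3 replicates. Nothing shows that the replicates were independent beyond being separate pools. The 3 overlap differences were not independent, because each draws on all 3 lists. Regions were named by rule: the 5 widest by smallest covered length in any list and the 3 weakest called in all lists. The 3 of highest percentile among regions called in 1 list only were also named. So were the 5 clusters with the most peaks in replicate 1, the list with the most peaks on the chromosome, and the peak-free stretches over 1 Mb. The chromosome, the lists and the rules were chosen with earlier results of these data known.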

Additional observations from a re-analysis of the deposited data

How the results depend on the processing

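No paired analysis was possible because the inputs have no peak list of their own; differences were taken within each replicate. Density on chromosome 25 (17.2 peaks per Mb) was 14.4 with scores of at least 100, 15.7 with an equal number of peaks in each list and 15.6 with peaks under 1000 bp apart merged. Dense windows numbered 28.7 of 86 with 500-kb windows. The share of peaks in clusters (16.2%) was 12.2% with scores of at least 100, 12.8% with merged peaks, 4.39% with gaps of at most 5 kb, 38.6% with gaps of at most 20 kb and 37.4% with 3 or more peaks. The share in peak-free stretches (36.3%) was 42.1% with scores of at least 100, 38.9% with equal lists, 48.6% for stretches of 250 kb and 19.6% for 1 Mb. The cause was not tested, beyond what each definition fixes. The differences in width, percentile and overlap stayed positive on average under every alternative run, and none could pass the test. Leaving out 1 replicate gave width differences of 107 to 165 bp and changed no direction. Splitting by dense and other windows was chosen after seeing the data; in the other windows the width difference was 75.3 bp and positive in 2 of 3 replicates, and the percentile difference was 5.46 and positive in 2 of 3. The lists hold no depth, so a missing peak cannot be read as a missing mark.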

Other observations

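Replicate 2 stood apart at some regions of chromosome 25 that all 3 lists held, about as often as on the other autosomes. The regions given here were picked after their values were seen. The region chr25:32457678-32458833, at the far end of a peak-free stretch, scored 238, 1901 and 278 in replicates 1 to 3, at percentiles 34.0, 81.4 and 37.1, and was covered over 570, 1156 and 606 bp. The region chr25:17729436-17731198 was at percentiles 56.0, 96.3 and 68.1. In the other direction, chr25:38672449-38674947 was at percentiles 43.2, 7.57 and 48.7, and chr25:11702397-11705644 at 39.6, 8.81 and 46.6. In replicate 2, 40 of the 605 regions called in all lists (6.61%) lay more than 20 percentile points from the mean of the other replicates, compared with 6.07% on the other autosomes. For replicates 1 and 3 the shares were 2.98% and 1.82% on chromosome 25, compared with 2.71% and 1.54%.

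Widths differed between lists slightly more on chromosome 25. Ratios were taken over the regions covered by a single peak in each list, 546 on chromosome 25. The median ratio of covered length between replicates 1 and 2 was 1.199, the highest of the 29 autosomes, the others running from 1.14 to 1.19. The ratio between replicates 2 and 3 was 0.951, the lowest, the others running from 0.953 to 0.997. The ratio between replicates 1 and 3 was 1.13, rank 7. These values have no test.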
